A study of Homo sapiens with 12 samples.

Results

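The 10 genes described here make, break down and sense prostaglandins: PLA2G4A, PTGS1, PTGS2, PTGES, PTGES2, PTGES3, PTGER2, PTGER4, HPGD and PTGR1. They were chosen by name among the 25992 gene names on the array, and every probe that carries one of these names was taken, which gave 12 probes of 34127. PTGS1 and PTGR1 had 2 probes each and the other genes 1. The arrays measured mRNA from HK-2 and RPTEC/TERT1, 2 established human proximal tubular cell lines. HK-2 cells were immortalised with papillomavirus genes and RPTEC/TERT1 cells with telomerase. Confluent cultures kept in medium with a normal glucose level were deprived of serum and supplements for 24 h. They then received IL-1β (10 ng/mL), empagliflozin (Empa, 500 nM), an inhibitor of the sodium-glucose cotransporter SGLT2, or neither for 24 h. Each line and condition had 2 arrays, biological duplicates by the study's methods, which gave 4 control, 4 IL-1β and 4 Empa arrays. No array held cells given both agents.

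Prostaglandins are made from arachidonic acid, which cytosolic phospholipase A2 (PLA2G4A) frees from membrane lipids. The cyclooxygenases PTGS1 (COX-1) and PTGS2 (COX-2) turn it into prostaglandin H2, and the synthases PTGES, PTGES2 and PTGES3 turn that into prostaglandin E2. Prostaglandin E2 acts through receptors such as EP2 (PTGER2) and EP4 (PTGER4), both of which raise cyclic AMP, and is inactivated by 15-hydroxyprostaglandin dehydrogenase (HPGD) and then by a reductase such as PTGR1. In the kidney, prostaglandin E2 is known for its part in salt and water handling and in the response to inflammation.

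The 12 arrays lay on 4 slides, each with the control, IL-1β and Empa arrays of 1 labelled line and 1 replicate number, named here as HK-2 slide 1 and 2 and RPTEC/TERT1 slide 1 and 2. The sample titles name both lines, while the source field of the deposit gives HK-2 for all 12 arrays. The lines here are those of the titles, and they did not match the arrays' likeness. Over 15329 probes well above background on every array, the control array of HK-2 slide 1 correlated at 0.984 with that of RPTEC/TERT1 slide 2 and at 0.880 with that of HK-2 slide 2. HK-2 slide 2 and RPTEC/TERT1 slide 1 correlated at 0.973, and both RPTEC/TERT1 slides at 0.875. Probes of PAX2, a nephron transcription factor, and CDH1 (E-cadherin) were well above background on the 6 arrays of HK-2 slide 1 and RPTEC/TERT1 slide 2 and on none of the other 6. Line names are therefore used here only as labels, and values are given by slide. Of 16 proximal tubule genes, 8 were well above background on all 12 arrays, SLC5A2 (SGLT2) among them, and SLC22A6, SLC5A1 and HNF4A on none. A probe of SLC12A1, a cotransporter of the thick ascending limb, read between 8482 and 13333 signal units in the controls of HK-2 slide 1 and RPTEC/TERT1 slide 2 and between 292 and 298 with IL-1β. It was not well above background on the other slides. Of the 6 listed genes of other nephron segments, 4 (SLC12A3, CALB1, AQP2 and SCNN1B) were well above background on none of the 12 arrays. The part of cell type in the results below was not tested.

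All signals below are in signal units after each array was scaled to a common 75th percentile of 419 units, and "well above background" is the scanner software's own mark. A signal is compared between arrays for 1 probe and never between probes. On these bulk samples, fewer cells that express a gene and less RNA per cell cannot be told apart. The control arrays serve both comparisons, so the IL-1β and Empa values of a probe are not independent. Each treated array was set against the control array of its slide, and limma was fitted over the 4 slides to the 20982 probes well above background on at least 4 arrays, with p-values adjusted over all of them. The standard error of a probe was estimated from both treatments together and moderated across all probes, so it is the same for both. Of the 12 probes, 10 entered this fit, and those of PTGS2 and PLA2G4A did not. With IL-1β, 3 of the 10 rose at an adjusted p under 0.05 (PTGER4, PTGER2 and 1 probe of PTGS1), against 3.86% of all probes tested, and none fell, against 6.90%. The PTGS1 probe passed the signal filter through its IL-1β arrays alone and so had to differ. Among the other 9 probes, 2 rose. Of these 9, the PTGES probe passed the filter through 3 IL-1β arrays and 1 Empa array, with no control array well above background. The split of all calls moved with the scaling, from 809 higher and 1448 lower here to 988 and 1084 after quantile normalisation and 1089 and 1033 with normexp, as the median over all probes moved from -0.11 to -0.03 and -0.01. Among genes known to respond to IL-1β, NFKBIA (3.69 on the log2 scale, adjusted p = 0.0020), SOD2 (4.31, adjusted p = 0.0046), CCL2 (5.83, adjusted p = 0.0020) and 1 of 2 probes of CXCL1 (6.24, adjusted p = 0.0014) rose. The other CXCL1 probe (1.68, adjusted p = 0.36) and ICAM1 (2.12, adjusted p = 0.058) did not pass, and TNFAIP3 had no probe in the fit. SOD2, CCL2, CXCL1 and ICAM1 are among the transcripts that the study picked on these same arrays for rising with IL-1β and falling with Empa. Their directions here are therefore not independent evidence.

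**Figure D1:**
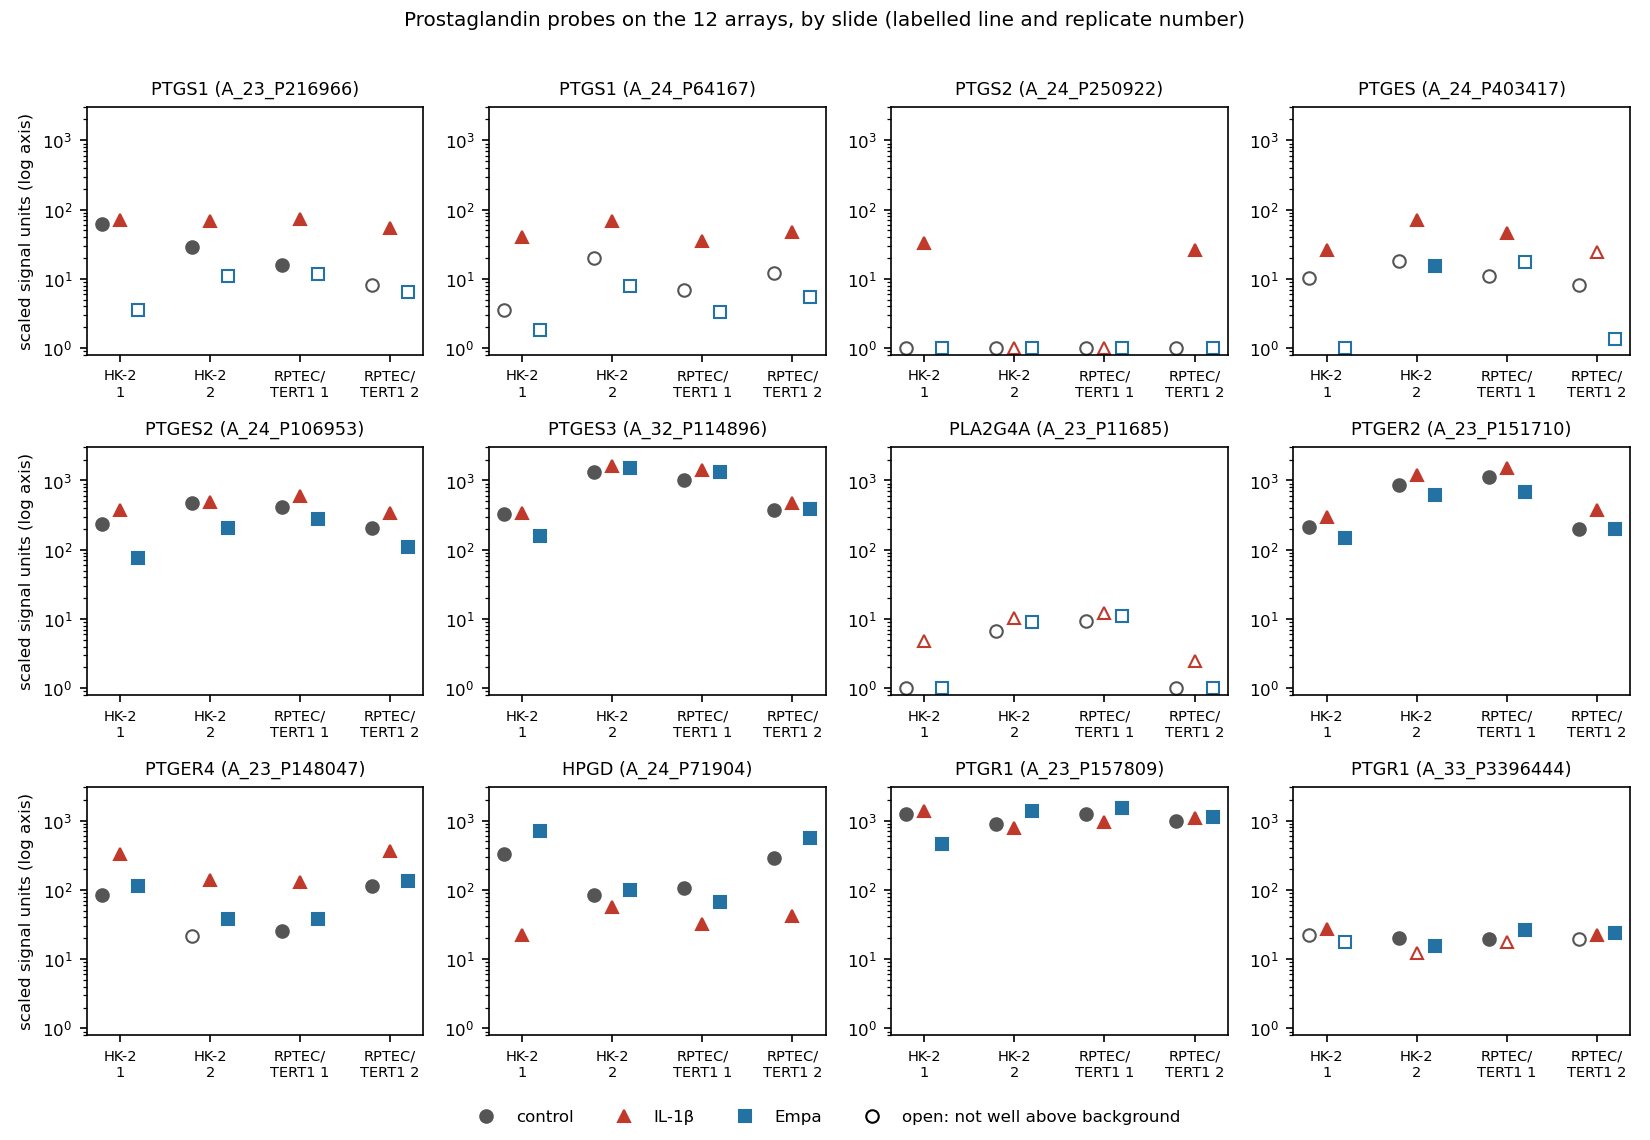
Signal of the 12 probes on the 12 arrays: each panel is a probe, the x axis the 4 slides, the y axis the scaled signal (log axis, values under 1 unit drawn at 1), grey circles control, red triangles IL-1β and blue squares Empa, open where the probe was not well above background. The IL-1β triangles of PTGER4 lie above every control, those of HPGD lie below every control, and PTGS2 leaves the floor on 2 arrays.

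The cyclooxygenase PTGS1 was measured by 2 probes placed 2484 bases apart on chromosome 9 (build hg19, plus strand). A_23_P216966 lies at chr9:125155052-125155111 and A_24_P64167 at chr9:125157536-125157595. Whether they fall in an exon or an untranslated stretch was not analysed here. The first 30 of the 60 bases of each are shown because the probes gave different sizes of change.
PTGS1 A_23_P216966: tcatttggtctgccagaatactgggttctt
PTGS1 A_24_P64167: acaggctaaatgcaccaagaaagcttcttc

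The downstream probe, A_24_P64167, read 39.9, 67.7, 35.2 and 47.4 units with IL-1β on HK-2 slides 1 and 2 and RPTEC/TERT1 slides 1 and 2. Its controls read 3.52, 19.8, 6.84 and 12.2, none of them well above background. The groups did not overlap, but the probe entered the fit through its IL-1β arrays alone, so they had to differ. As a group, IL-1β was at least 4.38-fold higher, with the control arrays at the lowest signal the scanner still marked as well above background or at their own signal where that was higher. The fitted change was 2.40 ± 0.27 on the log2 scale (SE, adjusted p = 0.0016, 4 slides). That SE pools both treatments. The slide differences had a standard deviation of 0.78 with IL-1β and 0.16 with Empa. With each array's background modelled by normexp, the change was 0.64, and in the study's own normalised table it was 0.56 with an adjusted p of 0.052. Without the slide block the adjusted p was 0.42. The upstream probe, A_23_P216966, read 70.0, 68.5, 72.9 and 53.5 units with IL-1β against 62.4, 28.9, 15.8 and 8.26 in the controls of the same slides. The IL-1β arrays were alike, while the controls spread widely and that of HK-2 slide 1 lay inside the IL-1β range. The fitted change was 1.58 ± 0.54 (adjusted p = 0.096). It was 2.05 without HK-2 slide 1 (adjusted p = 0.017), 1.69 without HK-2 slide 2 (adjusted p = 0.20), 1.37 without RPTEC/TERT1 slide 1 (adjusted p = 0.24) and 1.20 without RPTEC/TERT1 slide 2 (adjusted p = 0.35). With normexp and in the study's own normalised table it was 0.61 (adjusted p = 0.031 and 0.039).

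With Empa, the upstream PTGS1 probe was well above background on none of the 4 arrays, at 3.55, 10.9, 11.7 and 6.55 units, against 3 of 4 control arrays. As a group, Empa was at least 2.36-fold lower, and the fitted change of -1.58 ± 0.54 did not pass (adjusted p = 0.37). It was -0.73 without HK-2 slide 1, -0.96 without the Empa array of that slide and -0.92 without its control array, and -0.29 with normexp and -0.15 in the study's own normalised table. HK-2 slide 1 held the widest gap, at least 6.84-fold lower, and RPTEC/TERT1 slide 1 the narrowest that could be bounded, at least 1.35-fold lower. For the downstream probe neither the Empa arrays, at 1.81 to 7.86 units, nor the controls were well above background, so no fold is given. PTGS1 and PTGES2 are among the transcripts that the study picked on these same arrays for rising with IL-1β and falling with Empa, so their directions here are not independent evidence.

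PTGS2, the inducible cyclooxygenase, had 1 probe in 10 spots (A_24_P250922, hg19, chr1:186641469-186641528, minus strand). The first 30 bases of the probe and the 250 bases before the gene's start are shown because PTGS2 is the member whose signal appeared on some slides and not on others. The upstream sequence is from RefSeq (GRCh38.p14, chr1:186680424-186680673, minus strand), with the TATA box letters TATAAA and the letters CGTCA, a core of cyclic AMP response elements, in capitals.
PTGS2 probe: tgagatatttaaggttgaatgtttgtcctt
PTGS2 upstream: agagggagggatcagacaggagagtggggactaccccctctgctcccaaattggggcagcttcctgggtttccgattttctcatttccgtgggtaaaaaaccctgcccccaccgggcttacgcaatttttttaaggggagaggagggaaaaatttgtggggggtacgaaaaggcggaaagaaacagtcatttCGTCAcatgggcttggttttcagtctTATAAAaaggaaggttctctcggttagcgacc

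PTGS2 read 33.2 units on the IL-1β array of HK-2 slide 1 and 26.3 on that of RPTEC/TERT1 slide 2. The other 10 arrays read between -2.31 and 0.41 units, and none of them was well above background. The IL-1β arrays of HK-2 slide 2 (-0.47) and RPTEC/TERT1 slide 1 (0.41) were thus at the level of the controls. The arrays that showed a signal belong to the pair of slides that resembled each other across all probes, with 1 array of each label. On HK-2 slide 1, IL-1β was at least 4.49-fold above its control, and on RPTEC/TERT1 slide 2 at least 3.12-fold. With 2 of 12 arrays above background the probe entered no test, and when dim probes were kept in the fit the mean change was 2.44 (adjusted p = 0.27). All 4 Empa arrays lay at the level of the controls, between -2.31 and 0.27 units, so a fall could not have been seen.

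PLA2G4A, the phospholipase upstream of both cyclooxygenases, was well above background on none of the 12 arrays. Its probe (A_23_P11685, hg19, chr1:186957652-186957711) read 4.84, 10.3, 12.1 and 2.52 units with IL-1β against -1.36, 6.67, 9.29 and -0.0011 in the controls of the same slides. The signal was higher with IL-1β on 4 of 4 slides, at levels where neither array could be told from background, so no fold is given and no test was made. The Empa arrays read -0.038, 8.98, 11.1 and 0.14.

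Of the 3 prostaglandin E synthases, PTGES is the membrane enzyme known to be induced by cytokines, PTGES2 a second membrane enzyme and PTGES3 a cytosolic protein that is also a co-chaperone of HSP90. The PTGES probe (A_24_P403417, hg19, chr9:132501510-132501569, minus strand) read 25.8, 71.3, 46.7 and 24.7 units with IL-1β against 10.2, 18.1, 11.2 and 8.07 in the controls. The groups did not overlap, but no control array and only 3 of 4 IL-1β arrays were well above background. The probe passed the signal filter through these 3 and 1 Empa array, so a gap to the controls was favoured in advance. On the 3 slides whose IL-1β array was well above background, IL-1β was at least 2.52-fold, 3.94-fold and 4.18-fold higher, and no fold is given for RPTEC/TERT1 slide 2. The fitted change of 1.75 ± 0.59 did not pass (adjusted p = 0.093). Its SE also takes in the Empa arrays. The slide differences had a standard deviation of 0.34 with IL-1β and 1.88 with Empa. Without the Empa array of HK-2 slide 1 the adjusted p was 0.046, the only 1 of 12 fits leaving out an array that passed. The change was 0.45 with normexp (adjusted p = 0.027) and 0.46 in the study's own normalised table (adjusted p = 0.086), both well under the size on the scaled signals. With signals under 5 units set to 5 it was 1.75 (adjusted p = 0.0030), and without the slide block 1.75 (adjusted p = 0.94). With Empa the probe read -4.45, 15.3, 17.3 and 1.37 units, with only the array of HK-2 slide 2 well above background. The slides thus pointed in different directions near background, and no fold is given.

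PTGES2 (A_24_P106953, hg19, chr9:130886007-130886066, minus strand) was well above background on all 12 arrays, so its values are measured on both sides. With Empa it read 75.7, 209, 277 and 109 units against 233, 466, 409 and 205 in the controls. Each Empa array was below the control of its slide, by between 0.56 and 1.62 on the log2 scale, while the ranges over the 4 slides overlapped. The fitted change was -1.06 ± 0.22 (95% interval -1.56 to -0.56), with the smallest unadjusted p of the 10 probes tested (9.5e-04) and an adjusted p of 0.26. With IL-1β the same probe read 379, 493, 590 and 340 units, a change of 0.51 ± 0.22 (adjusted p = 0.18).

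PTGES3 (A_32_P114896) read 335, 1594, 1399 and 479 units with IL-1β against 333, 1324, 1027 and 371 in the controls. The differences ran from 0.01 to 0.45 on the log2 scale, and the fitted change was 0.27 ± 0.23 (95% interval -0.25 to 0.79, adjusted p = 0.48). With Empa it read 160 units on HK-2 slide 1, below its control, and 1509, 1327 and 388 on the other slides, all above theirs. The fitted change was -0.11 ± 0.23 (95% interval -0.63 to 0.41, adjusted p = 0.86), and its sign turned when HK-2 slide 1 was left out (0.21).

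Both receptor genes passed the test with IL-1β. Their upstream sequences are shown because both passed, with letters that match the consensus of the transcription factor NF-κB marked. Such a match stood in 9.96% of all windows searched, also before PTGES3, which did not pass, and HPGD, whose change was negative. Whether the matches play a part was not tested. The sequences are the 250 bases before each start from RefSeq (GRCh38.p14), PTGER4 at chr5:40679665-40679914 and PTGER2 at chr14:52314062-52314311, both on the plus strand. Matches to the NF-κB consensus and to CGTCA on either strand are in capitals.
PTGER4: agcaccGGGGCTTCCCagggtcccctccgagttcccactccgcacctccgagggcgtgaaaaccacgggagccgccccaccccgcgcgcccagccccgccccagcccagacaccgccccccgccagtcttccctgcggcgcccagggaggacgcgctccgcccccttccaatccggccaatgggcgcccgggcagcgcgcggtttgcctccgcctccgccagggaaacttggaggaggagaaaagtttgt
PTGER2: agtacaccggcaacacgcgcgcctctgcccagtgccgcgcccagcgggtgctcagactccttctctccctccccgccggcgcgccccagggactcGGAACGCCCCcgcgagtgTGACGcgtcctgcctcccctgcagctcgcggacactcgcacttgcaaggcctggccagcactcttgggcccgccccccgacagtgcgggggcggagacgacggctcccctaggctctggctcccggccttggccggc

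PTGER4, the EP4 receptor, rose with IL-1β on every slide (A_23_P148047, hg19, chr5:40693563-40693622). It read 327, 137, 128 and 362 units with IL-1β against 85.6, 21.8, 25.2 and 113 in the controls, and the lowest IL-1β array lay above the highest control. The geometric mean went from 48.1 to 214 units, a change of 2.15 ± 0.18 on the log2 scale (adjusted p = 4.2e-04). The control of HK-2 slide 2 was not well above background, and on that slide IL-1β was at least 6.30-fold higher. On the other slides it was 3.82-fold, 5.09-fold and 3.20-fold higher. The call held in each of 16 fits that left out a slide or an array, with changes of 1.99 to 2.31. The size was 1.24 with normexp and 1.05 in the study's own normalised table, with adjusted p of 5.0e-04 and 0.0026, and was 2.15 with an adjusted p of 0.65 without the slide block.

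With Empa, PTGER4 read 115, 38.3, 37.8 and 134 units, above the control of the slide on 4 of 4 slides. The Empa arrays of HK-2 slide 1 and RPTEC/TERT1 slide 2 lay just above the highest control, and the others lay within the range of the controls. The change was 0.51 ± 0.18 (95% interval 0.11 to 0.92, unadjusted p = 0.018, adjusted p = 0.37).

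PTGER2, the EP2 receptor (A_23_P151710, hg19, chr14:52794430-52794489), read 297, 1208, 1488 and 375 units with IL-1β against 211, 865, 1123 and 200 in the controls. The rises were 0.49 and 0.48 on HK-2 slides 1 and 2 and 0.41 and 0.91 on RPTEC/TERT1 slides 1 and 2 (log2 scale). The controls spanned 2.49 over the slides, so the groups overlapped. The fitted change was 0.57 ± 0.16 (adjusted p = 0.047). This call was at the threshold and was lost in 15 of 16 fits that left out a slide or an array, where the adjusted p ran up to 0.25 and the change between 0.45 and 0.65. With Empa the probe read 148, 626, 693 and 196 units, below its control on each slide, a change of -0.42 ± 0.16 (95% interval -0.78 to -0.07, unadjusted p = 0.023, adjusted p = 0.39).

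HPGD, the dehydrogenase that inactivates prostaglandin E2, was well above background on all 12 arrays (A_24_P71904, hg19, chr4:175411686-175411745, minus strand). It read 22.3, 57.0, 31.6 and 41.4 units with IL-1β against 324, 83.3, 106 and 290 in the controls. Every IL-1β array lay below every control. The differences ran from -3.86 on HK-2 slide 1 to -0.55 on HK-2 slide 2, and the fitted change of -2.24 ± 0.62 missed the threshold (95% interval -3.65 to -0.83, adjusted p = 0.052). The controls were at 324 and 290 units on HK-2 slide 1 and RPTEC/TERT1 slide 2, and at 83.3 and 106 on the others. The size and the side of the threshold moved both ways with the processing. With 1 slide or array left out, the change ran from -1.58 without the IL-1β array of HK-2 slide 1 (adjusted p = 0.12) to -2.83 without that of HK-2 slide 2 (adjusted p = 0.023), and 3 of these 16 fits passed. It was -1.19 with normexp (adjusted p = 0.12) and -0.94 in the study's own normalised table (adjusted p = 0.11). The adjusted p was 0.031 among probes well above background on all 12 arrays alone and 0.71 without the slide block. The epithelial marker CDH1 was lower with IL-1β on the slides where HPGD differed most, HK-2 slide 1 and RPTEC/TERT1 slide 2, at 221 to 289 units against 2946 to 3302 in the controls. The list held 4 epithelial markers, none of them at background throughout and 3 above it on every array. The summed signal of the 4 ran from 15923 to 36277 units in the controls and from 12610 to 26610 with IL-1β. The part of these markers in the HPGD values was not tested. With Empa the probe read 706.9, 101, 67.1 and 552 units, above the control on 3 of 4 slides, and the fitted change was 0.42 ± 0.62 (95% interval -0.99 to 1.83, adjusted p = 0.80).

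PTGR1, a reductase of the next step, had 2 probes 13478 bases apart on chromosome 9 (hg19, minus strand). The first 30 bases of each are shown because the probes carry different transcript records, A_23_P157809 at chr9:114341169-114341228 a RefSeq one and A_33_P3396444 at chr9:114354647-114354706 an Ensembl one.
PTGR1 A_23_P157809: tgcaaagttgttggagcagtagggtctgat
PTGR1 A_33_P3396444: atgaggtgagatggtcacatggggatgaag

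A_23_P157809 was bright on all 12 arrays, at 1385, 783, 939 and 1091 units with IL-1β against 1229, 904, 1249 and 971 in the controls. It was higher on 2 slides and lower on 2, and the change was -0.07 ± 0.37 (95% interval -0.90 to 0.76, adjusted p = 0.93). With Empa it read 459 units on HK-2 slide 1 and 1379, 1497 and 1133 on the others, a change of -0.08 ± 0.37 (95% interval -0.91 to 0.74, adjusted p = 0.94). A_33_P3396444 stayed between 12.2 and 27.5 units, was well above background on 7 arrays, and changed by -0.09 ± 0.23 with IL-1β (adjusted p = 0.84) and by 0.01 ± 0.23 with Empa (adjusted p = 0.99).

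**Figure D2:**
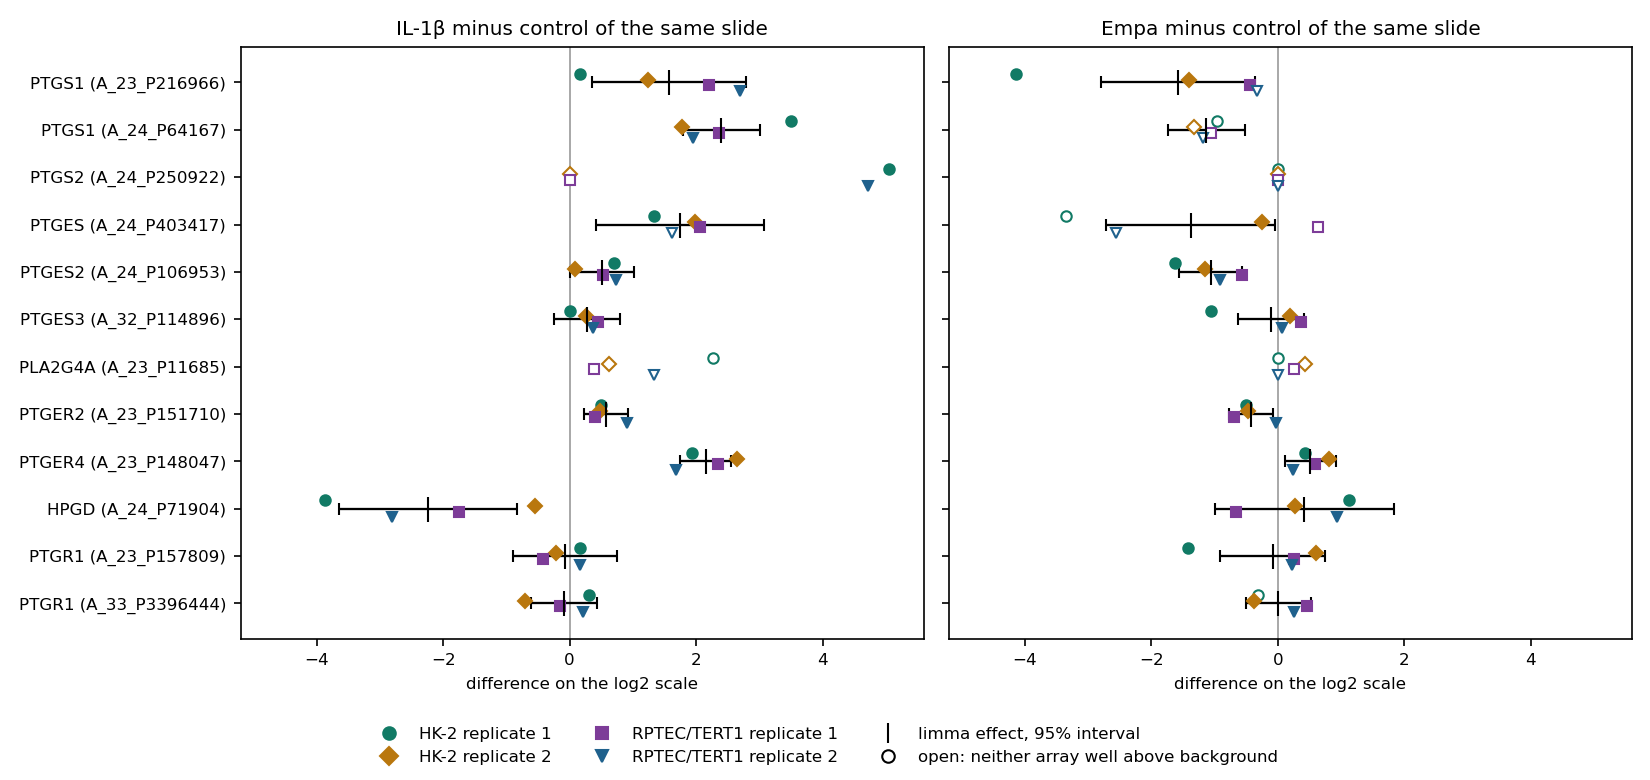
Difference between the treated array and the control array of the same slide for each of the 12 probes (log2 scale, IL-1β left, Empa right). Symbols are the 4 slides, open where neither array was well above background, and the black mark with its bar is the limma effect with its 95% interval for the 10 probes tested. With IL-1β the interval of PTGER4 runs from 1.75 to 2.56, and with Empa that of PTGES2 from -1.56 to -0.56.

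With Empa, 0 of the 10 probes passed an adjusted p under 0.05, against 0.00477% of all probes tested, which is 1 probe. That probe, named after its value was seen, was of DHRS2 (2.73, adjusted p = 0.0297). At an unadjusted p under 0.05 there were 6 of the 10, against 11.2% of all probes. These were PTGES2, both PTGS1 probes, PTGER2 and PTGES with negative values and PTGER4 with a positive one. Of the 6, only PTGES2, PTGER2 and PTGER4 were well above background on all 4 Empa arrays. The adjusted p of the 10 probes ran from 0.26 to 0.99.

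Whether the labelled lines responded differently was tested by an interaction of treatment and label. It called 0 of 20982 probes for IL-1β and 0 for Empa in limma, with 328 and 192 at an unadjusted p under 0.05. Among the members the lowest unadjusted p was that of the upstream PTGS1 probe with Empa (0.021), where the effect on the HK-2 slides was lower by 2.38 on the log2 scale. Each label joins 2 slides that were unlike across all probes, so how the lines differ was not tested.

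In the controls, the levels of several members followed the likeness of the slides and not the labels. PTGER2 read 211 and 200 units on HK-2 slide 1 and RPTEC/TERT1 slide 2 and 865 and 1123 on HK-2 slide 2 and RPTEC/TERT1 slide 1. PTGES3 had the same order (333 and 371, then 1324 and 1027), and so did PTGES2 (233 and 205, then 466 and 409). HPGD (324 and 290, then 83.3 and 106) and PTGER4 (85.6 and 113, then 21.8 and 25.2) had the opposite one. For these 5 probes the controls of like slides lay 0.08 to 0.40 apart on the log2 scale, and those of the same label 1.00 to 2.49 apart. PTGR1 did not show this order, with a range of 0.47 over the 4 controls. The upstream PTGS1 probe was ordered by label, at 62.4 and 28.9 units on the HK-2 slides and 15.8 and 8.26 on the RPTEC/TERT1 slides. On RPTEC/TERT1 slide 2 it was not well above background. Its controls of like slides lay 2.92 and 0.87 apart on the log2 scale, and those of the same label 1.11 and 0.94.

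The other genes of the eicosanoid pathways were taken as a list of 35 genes on the array with 49 probes, of which 32 probes of 25 genes were tested. With IL-1β 4 probes rose, 2 fell and 26 did not pass, against 3.86% and 6.90% of all probes. The median change was -0.23, against -0.11 over all probes tested. SLCO2A1, a transporter that takes up prostaglandins, rose by 2.70 ± 0.32 (adjusted p = 0.0020). PTGFR, the prostaglandin F receptor, rose by 1.87 ± 0.25 (adjusted p = 0.0030) and 1.65 ± 0.29 (adjusted p = 0.010) at 2 of its 3 probes tested, and AKR1B1, an aldose reductase that can make prostaglandin F, by 1.59 ± 0.43 (adjusted p = 0.046). Of these, the second PTGFR probe was well above background on 1 control array and 3 IL-1β arrays. LTC4S, the leukotriene C4 synthase, fell by 1.67 on the log2 scale (SE 0.16, adjusted p = 7.4e-04), and ABCC4, an exporter of prostaglandins and cyclic nucleotides, fell by 0.99 (SE 0.16, adjusted p = 0.0070). LTC4S was well above background on 2 of 4 IL-1β arrays. All 6 differences had the same sign on 4 of 4 slides. The probes were picked by the fit on these same slides, so the shared sign adds no independent evidence. SLCO2A1 and AKR1B1 are among the transcripts that the study picked on these same arrays for rising with IL-1β and falling with Empa. Their directions here are therefore not independent evidence.

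By role and with both directions together, 0 of 8 probes of other phospholipases passed, 1 of 7 of other synthases and 2 of 4 of breakdown and transport. So did 2 of 7 of other receptors and 1 of 6 of the lipoxygenase branch. Over all probes tested the share was 10.8%. The 2 of breakdown and transport were SLCO2A1, higher, and ABCC4, lower, and the 2 of other receptors were both of PTGFR. PTGR2, the second prostaglandin reductase, changed by -1.05 ± 0.29 (adjusted p = 0.052), close to the threshold as HPGD was. ALOX5AP, which hands arachidonic acid to 5-lipoxygenase, changed by 2.79 ± 0.93 (adjusted p = 0.090), with differences of 1.44 to 6.22 over the slides. With Empa 0 of the 32 probes passed, and 5 had an unadjusted p under 0.05, against 11.2% of all probes. The median change was -0.15, against -0.04 over all probes.

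**Figure D3:**
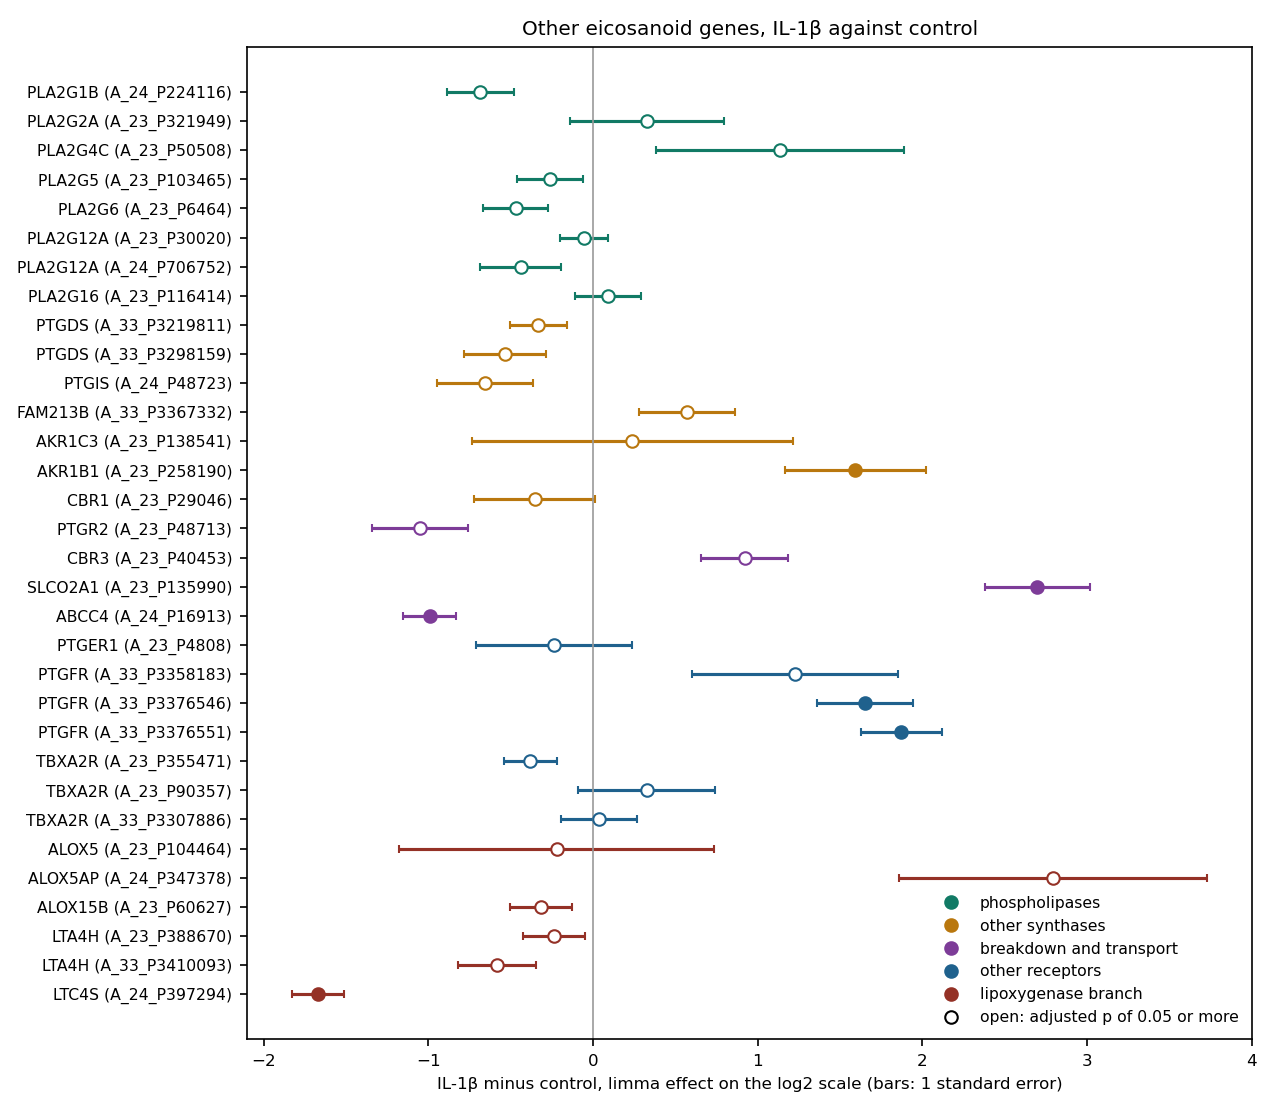
IL-1β effect for the 32 tested probes of other eicosanoid genes (x axis, log2 scale, bars of 1 standard error), coloured by role and filled where the adjusted p was under 0.05. SLCO2A1, AKR1B1 and 2 PTGFR probes lie to the right and LTC4S and ABCC4 to the left of 0, and most others are open.

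The genes whose pattern over the 12 arrays was most like that of 3 members were found by Pearson's r of the log2 values, as a description over arrays that share slides. For PTGS2 they were SNPH, SERPINA3 and NGEF (r = 0.989, 0.988 and 0.987), a likeness that rests on the 2 arrays where PTGS2 left the floor. For the upstream probe of PTGS1 they were PTPRK, TPI1P2 and TSPAN14 (0.947, 0.898 and 0.891). For PTGES they were IL11, JMJD6 and HNRNPDL (0.95, 0.935 and 0.933).

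Upstream sequences of all 10 genes were in the RefSeq table, as 14 entries. The NF-κB consensus, searched by its usual letters on both strands in the 250 bases before a start, occurred in 9.96% of 35116 such windows and in those of PTGER4 (244 to 235 bases before the start), PTGER2 (155 to 146), PTGES3 (121 to 112) and HPGD (70 to 61). It thus stood before genes that rose, that did not pass and that had a negative change with IL-1β. No match was found in this window of PTGS1 or PTGS2. Stretches that differ from the consensus by a letter were not counted, so a missing match does not show that a site is missing. CGTCA occurred in 21.2% of windows and in those of PTGS2 (58 to 54), PTGER2 (137 to 133), PTGES3 (21 to 17) and a second entry of HPGD (77 to 73). TATAAA occurred in 10.7% and in those of PTGS2 (32 to 27) and PTGS1 (208 to 203, on the other strand). A match is a description of letters only.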

How the data were processed

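RNA of 12 cultures was hybridised to one-colour Agilent Human Gene Expression 4x44K v2 arrays. Per the file headers, Feature Extraction 9.5.3.1 made the deposited processed intensity, which is background-subtracted, and marked each spot as well above background or not. The authors also deposited a table of normalised log2 values, used as an alternative. Probe positions are those of the files (hg19). Each array's intensities were scaled to a common 75th percentile, set to at least 1 unit and taken to log2, leaving out control spots and outlier spots and averaging the spots of a probe. limma 3.58.1 (R 4.3.3) fitted each treatment with the slide as a block (6 residual degrees of freedom) over all 12 arrays, for 20982 of 33483 probes, those well above background on at least 4 arrays, with Benjamini-Hochberg adjustment over all of them. Tables and plots were made in Python 3.11.15.

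The replicate number names a slide, and the arrays were paired by slide. Deviations of the arrays of 1 slide from their group means correlated at 0.736 to 0.925. Each group mean held 2 arrays, and the 2 slides of a label were unlike across all probes. High values were thus given in advance and do not show whether the cultures were paired. By the file headers, the arrays of replicate number 1 were scanned on the same day (scan 1 below), as were those of number 2 (scan 2). The members, the gene lists and the tests were chosen with earlier results of these data known. Every probe of a member was named. Of the other eicosanoid genes, those past the threshold were named, at most 6 in each direction. PTGR2 and ALOX5AP, near it, were named after their values were seen. Likeness of pattern was ranked by Pearson's r over the 12 arrays for the brightest probe of PTGS2, PTGS1 and PTGES, taking the 3 highest genes. The 75th percentiles ran from 298 to 765 units, and 52.7 to 63.1% of probes per array were well above background. The number of arrays limits the precision. The p-values measure only how the differences from control vary between these slides, over both treatments and moderated across probes. The fit was tested on simulated data. Alternatives changed the scaling, background, floor, filter, block, arrays left out and test.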

Additional observations from a re-analysis of the deposited data

How the results depend on the processing

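Without the replicate block, the IL-1β calls over all probes went from 2257 to 6, those of the other eicosanoid genes from 4 higher and 2 lower to 0 and 0, and no member passed. The cause was not tested. The IL-1β calls numbered 812 with the block and an effect per labelled line, 0 in either line alone, 0 in either scan alone (chosen after seeing the data), 47 by the methods' t-test, and 410 to 3460 with 1 slide or array left out, lowest without RPTEC/TERT1 slide 2 and highest without the Empa array of HK-2 slide 1. Of the 10 member probes, those called with IL-1β in either direction numbered 3 as reported, against 10.8% of all probes, and 6 with normexp, against 10.1%. They numbered 2 in the authors' table (PTGER4 and the upstream PTGS1 probe), against 9.77%, and 5 with a floor of 5 units, against 11.2%. These 5 include HPGD, whose change was negative. The single Empa call went to 0 with quantile normalisation, normexp, the authors' table, a floor of 5 units, no filter, probes well above background on all 12 arrays, no block, an effect per line, either line alone and either scan alone, to 2 by the methods' t-test, and to 0 to 2 with 1 slide or array left out. Of the members, PTGES3 with Empa changed sign to 0.072 in the authors' table, 0.22 in RPTEC/TERT1 alone and 0.13 in scan 2. PTGR1 A_23_P157809 with Empa turned to 0.015 with normexp, 0.024 in the authors' table, 0.24 in RPTEC/TERT1 alone and 0.42 in scan 2. PTGR1 A_33_P3396444 turned with IL-1β to 0.10 (quantile), 0.026 (normexp), 0.027 (RPTEC/TERT1 alone) and 0.074 (scan 1), and with Empa to -0.34 (HK-2 alone) and -0.054 (scan 2). With 1 slide or array left out, values ran from -0.088 to 0.86 for HPGD with Empa, -0.27 to 0.21 for PTGES3 with Empa, -0.37 to 0.11 and -0.34 to 0.40 for PTGR1 A_23_P157809 with IL-1β and Empa, and -0.27 to 0.12 and -0.15 to 0.18 for A_33_P3396444. Of 310 values of members under the other alternatives, 267 kept direction and side of the threshold, 21 lost it, 9 gained it and 13 changed sign.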
